A study of Rattus norvegicus with 8 samples.

Results

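The comparison described here sets neurons silenced in both treatment periods against neurons never silenced, in a study of how earlier activity shapes a later response of hippocampal and cortical neurons. Cultures were primary co-cultures of hippocampus and cortex from Sprague Dawley rats of postnatal day 1 to 2. They received vehicle (water, H) or 1 µM tetrodotoxin (TTX, T) for 24 h from day 14 in vitro, had 48 h of washout, and received vehicle or TTX again on day 17 for 4 h. Bromouridine (BrU) at 2 mM was added for the last 30 min, and RNA carrying it was captured and sequenced (BrU-seq), so the reads report recent transcription. The 4 libraries compared are the 2 labelled TT (TTX in both periods) and the 2 labelled HH (vehicle in both), out of 8 in the series. The 4 libraries with a single treatment, HT (TTX in the second period only) and TH (TTX in the first period only), supplied the single changes whose sum was compared with the change in TT. All 16871 genes of the count table were considered, and 11372 (67.4%) had enough reads to be tested, while 5499 did not and are not described. The labels call the samples hippocampal neuron cultures, whereas the protocol adds cortex, and nothing says that the replicates came from separate cultures.

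TTX blocks voltage-gated sodium channels and so stops action potentials. Silencing lowers calcium entry through synaptic receptors and voltage-gated channels, which normally keeps activity-response genes such as Fos, Arc and Bdnf transcribed. Neurons silenced for a long time strengthen their synapses, a process called synaptic scaling. Such cultures also hold glia. Oligodendrocyte progenitors divide and respond to neuronal activity, and as they differentiate they switch on myelin genes. Because these are bulk samples, fewer cells of a type and less RNA per cell cannot be told apart.

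Library totals lay between 3489176 and 4959887 counts. The replicates stood further apart in HH than in any other group: 546 genes differed over 2-fold between the 2 HH libraries, against 155 between the 2 TT libraries. HH replicate 1 stood apart in activity-response genes. CPM are counts scaled to a common library size, with factors from the trimmed mean of M values. The 23 rapid activity-response genes in the count table, tested or not, summed to 998 CPM in HH replicate 1. They summed to between 279 and 396 CPM in the other 7 libraries. TT replicate 2 stood apart in myelin genes, where the 15 genes of the list, tested or not, summed to 948 CPM against 429 to 626 CPM elsewhere. Neuronal genes were abundant in every library, with the 12 pan-neuronal markers summing to between 4652 and 6959 CPM. Microglial genes were low: 8 of 13 were not tested, Aif1 and P2ry12 reached at most 2 and 3 reads in any library, and of the 5 tested Cx3cr1 and Ptprc reached 35 and 27.

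No gene passed the test between TT and HH. With edgeR's quasi-likelihood test and Benjamini-Hochberg adjustment over all 11372 genes, 0 genes (0%) had an adjusted p under 0.05, and the smallest adjusted p was 0.131. With an unadjusted p under 0.05 stood 1151 genes (10.1% of those tested), 633 with the higher level in TT (5.57%) and 518 with the lower (4.56%), where chance alone would give 568.6 genes. DESeq2 called 35 genes and limma-voom 0. The typical gene had a 95% interval reaching 0.43 on the log2 scale to each side of its estimate, wider than the median size of the change, 0.18. Leaving out HH replicate 2 gave 257 calls and leaving out TT replicate 1 gave 16, while leaving out any other library gave 0. Both TT libraries lay above both HH libraries for 2480 genes (21.8%) and below them for 2194 (19.3%). Scaled by library totals alone these numbers were 3633 and 1261, and the median difference of all genes was 0.11 in place of 0.01, since HH replicate 1 had the smallest scaling factor, 0.901. The values below therefore describe levels in these libraries, and every adjusted p given is that of the edgeR test. List counts below are to be set beside the shares over all genes. These were 5.57% higher and 4.56% lower at an unadjusted p under 0.05, and 21.8% higher and 19.3% lower without overlap.

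Genes of the oligodendrocyte lineage stood higher in TT. All 10 tested genes of differentiating oligodendrocytes and myelin had a log2 change above 0, with a median of 1.16, where 50.6% of all genes lay above 0 and the median over all genes was 0.0033. Of these, 8 had an unadjusted p under 0.05 in that direction. Both TT libraries lay above both HH libraries for 9 of the 10, where 21.8% of all genes did so. The other 5 genes on the list, Mag, Mog, Ermn, Mal and Opalin, had at most 26, 4, 2, 5 and 6 reads in any library and were not tested.

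Tspan2, a tetraspanin of oligodendrocytes that was not on the list, stood at 29.0 and 35.2 CPM in HH and at 62.5 and 82.1 CPM in TT. The groups did not overlap. Its log2 change of 1.17 ± 0.18 (SE, n = 2 libraries per group) shared the smallest adjusted p, 0.131, with several other genes. Gal3st1, the sulfotransferase that makes the myelin lipid sulfatide and was not on the list either, stood at 6.17 and 6.26 CPM in HH and 15.9 and 19.5 CPM in TT. The HH replicates of Gal3st1 nearly coincided, and its log2 change was 1.51 ± 0.23 (edgeR adjusted p = 0.131). Tcf7l2, a transcription factor needed for oligodendrocyte differentiation, stood at 20.7 and 19.6 CPM in HH and 36.9 and 56.0 CPM in TT. Enpp6, a phosphodiesterase that marks newly forming oligodendrocytes, stood at 26.2 and 33.9 CPM in HH and 50.8 and 70.5 CPM in TT. In both of these genes the TT libraries lay above the HH libraries, with log2 changes of 1.21 ± 0.22 and 1.01 ± 0.20.

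The rest of the myelin list divided by gene. Ugt8, which makes the galactolipid of myelin, Cldn11, the tight junction protein of myelin, Cnp and the transcription factor Myrf had log2 changes between 1.11 and 2.21. Myrf went from 14.5 and 17.5 CPM in HH to 24.7 and 68.7 CPM in TT, so that TT replicate 2 stood far above TT replicate 1. Mbp, which encodes myelin basic protein, stood at 85.7 and 134 CPM in HH and 91.9 and 161 CPM in TT, and the groups overlapped. TT replicate 2 was the highest of the 8 libraries for 9 of the 10 genes. Without it the list median was 0.69, with 9 of 10 genes above 0, and without TT replicate 1 it was 1.52.

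Genes of oligodendrocyte progenitors had smaller differences that were spread more evenly over the TT libraries. All 11 tested members lay above 0, with a median of 0.50. Of them, 8 had an unadjusted p under 0.05 (5.57% of all genes, higher in TT) and 10 had no overlap (21.8%). Gpr17, a receptor of progenitors that have committed to differentiate, stood at 6.48 and 6.78 CPM in HH and at 14.9 and 25.9 CPM in TT. Its log2 change was 1.63 ± 0.31 (adjusted p = 0.163). Bcas1, expressed as progenitors begin to myelinate, had 224 and 134 CPM in HH and 372 and 839 CPM in TT. Olig2, the factor that specifies the lineage, stood at 105 and 97.5 CPM in HH and 138 and 148 CPM in TT. Pdgfra, the receptor for the progenitors' growth factor, stood at 145 and 157 CPM in HH and 205 and 176 CPM in TT, a log2 change of 0.33 ± 0.15. Gpr17 and Bcas1 thus had larger changes than Olig2 and Pdgfra, a difference between genes that was not tested. In Gpr17 and Bcas1, TT replicate 2 stood well above TT replicate 1. TT replicate 2 was the highest of the 8 libraries for 7 of the 11 genes.

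**Figure D1:**
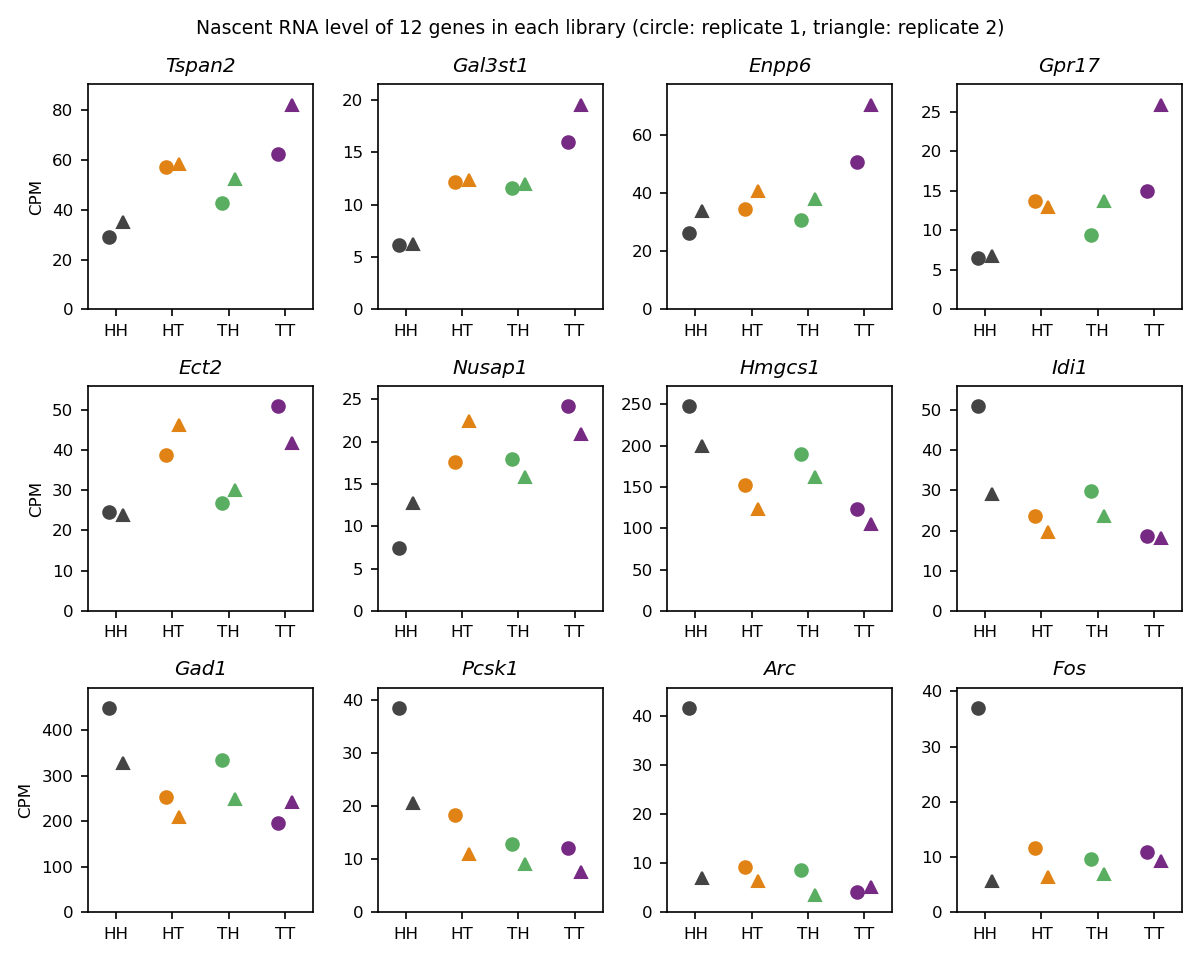
Nascent RNA level of 12 genes in CPM (y axis, from 0) in each library, grouped by treatment on the x axis, with circles for replicate 1 and triangles for replicate 2. For Tspan2, Gal3st1, Enpp6, Gpr17, Ect2 and Nusap1 the TT libraries lie above both HH libraries, for Hmgcs1, Idi1, Gad1 and Pcsk1 they lie below, and for Arc and Fos HH replicate 1 stands alone.

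Genes of mitosis and cytokinesis formed another group with higher levels in TT. All 19 tested genes lay above 0, with a median of 0.76. Of these, 15 had an unadjusted p under 0.05 (5.57% of all genes, higher in TT) and 18 had no overlap between the groups (21.8% of all genes). Without TT replicate 2 the number at an unadjusted p under 0.05 was 9. Ect2, the exchange factor that starts cleavage of the dividing cell, stood at 24.7 and 23.7 CPM in HH and 50.8 and 41.8 CPM in TT. Its log2 change was 0.93 ± 0.17 (adjusted p = 0.155). Nusap1, which bundles spindle microtubules, stood at 7.40 and 12.8 CPM in HH and 24.2 and 20.9 CPM in TT. Mki67, the proliferation marker, stood at 21.9 and 24.3 CPM in HH and at 32.6 and 38.4 CPM in TT. Cdk1, the kinase that drives entry into mitosis, stood at 12 and 11.5 CPM in HH and at 21.7 and 18.9 CPM in TT. Kif23, a kinesin of the dividing cell's midzone, was the member whose groups overlapped. DNA replication genes lay above 0 in 18 of 20, with a median of 0.33, and 5 had an unadjusted p under 0.05. Without TT replicate 2 the median was 0.19, and without TT replicate 2, or without HH replicate 2, that number was 1; it was 3 without HH replicate 1. Rrm2, a subunit of ribonucleotide reductase, stood at 8.02 and 4.96 CPM in HH and 13.2 and 13.9 CPM in TT.

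Other glial markers lay beside these. Of 13 tested astrocyte genes, 9 lay above 0, with a median of 0.16, 5 at an unadjusted p under 0.05 above and 1 below. The astrocyte water channel gene Aqp4 stood at 165 and 133 CPM in HH and 218 and 221 CPM in TT, and Gfap, the filament gene of astrocytes, at 337 and 368 CPM in HH and 546 and 543 CPM in TT. Slco1c1, a transporter on the astrocyte list, lay lower in TT without overlap, at 51.5 and 23.7 CPM in HH and 18.2 and 14.5 CPM in TT. The list median was 0.41 without HH replicate 2, and 3 genes above 0 had an unadjusted p under 0.05 without TT replicate 2. The summed astrocyte level ran from 1805 to 2159 CPM in HH and from 2139 to 2239 CPM in TT, so those ranges overlapped. Oligodendrocyte progenitor genes summed to 1680 to 1942 CPM in HH and 2395 to 2797 CPM in TT. Pan-neuronal genes summed to 5430 to 6959 CPM in HH and 4652 to 5470 CPM in TT. All 12 pan-neuronal genes had a log2 change below 0, with a median of -0.15, and 2 had an unadjusted p under 0.05. Without TT replicate 2 the median was -0.07, with 3 genes above 0 and none at an unadjusted p under 0.05, and it was -0.27 without TT replicate 1. Scaled by library totals alone it was -0.04, also with 3 above 0. The part of cell numbers in these differences was not tested.

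**Figure D2:**
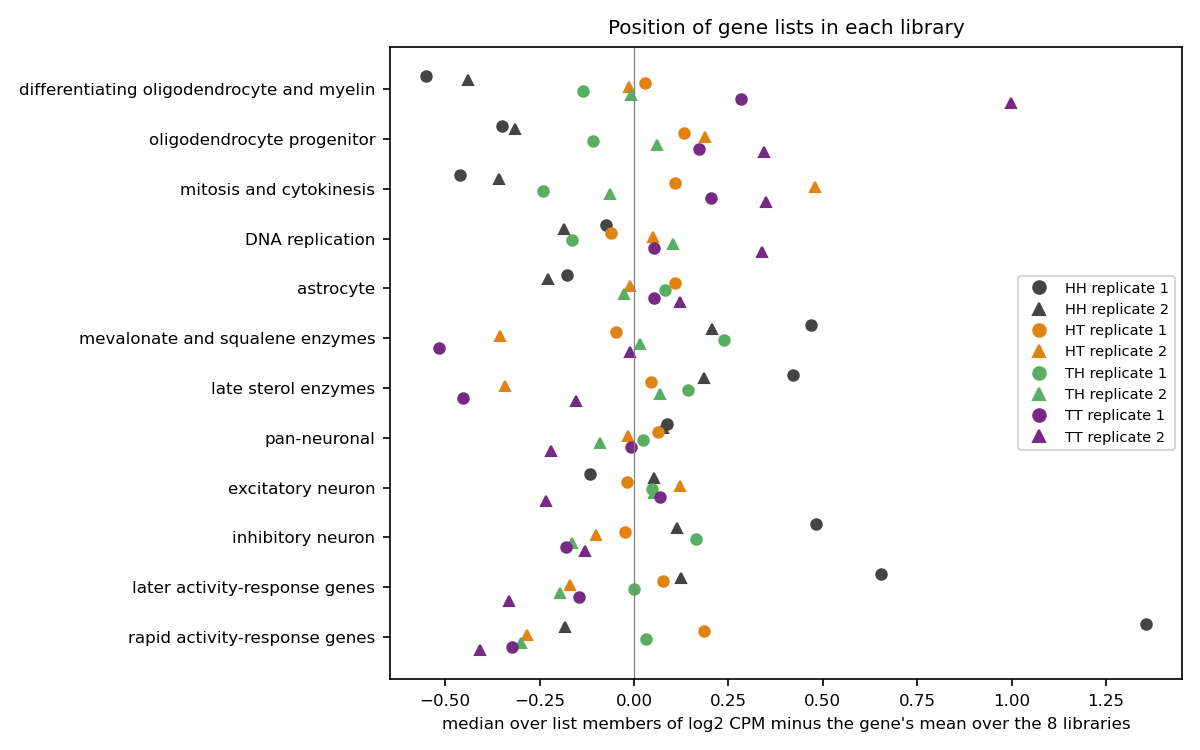
Median position of 12 gene lists (rows) in each of the 8 libraries, as log2 CPM minus the gene's own mean over the 8 libraries (x axis), with colours for the groups, circles for replicate 1 and triangles for replicate 2. TT replicate 2 lies farthest to the right for myelin genes at 1.00, and HH replicate 1 for rapid activity-response genes at 1.36.

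Enzymes of cholesterol synthesis had the lower level in TT. None of the 10 genes of the mevalonate and squalene steps lay above 0, and their median log2 change was -0.60. Of these, 7 had an unadjusted p under 0.05 and 9 had both TT libraries below both HH libraries, where 19.3% of all genes did so. The 10 enzymes of the later sterol steps had a median of -0.64, again with none above 0, 7 at an unadjusted p under 0.05 and 7 without overlap.

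Hmgcs1, which makes the precursor of mevalonate, stood at 247 and 200.1 CPM in HH, 152 and 123 CPM in HT, 189 and 161 CPM in TH, and 123 and 105 CPM in TT. Its log2 change between TT and HH was -0.97 ± 0.16 (adjusted p = 0.131), the smallest p among genes with the lower level in TT. Idi1, the isomerase of the isoprenoid building blocks, stood at 50.9 and 29.2 CPM in HH and 18.7 and 18.1 CPM in TT. Mvd, the decarboxylase before it, stood at 21.3 and 22.4 CPM in HH and 8.97 and 14.1 CPM in TT. In both genes the groups were apart, with log2 changes of -1.11 ± 0.25 and -0.90 ± 0.25. Among the later enzymes, Msmo1 stood at 84.5 and 62.3 CPM in HH and 39.1 and 49.6 CPM in TT, and Cyp51 at 121 and 74.1 CPM in HH and 40.1 and 61 CPM in TT.

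Sterol uptake and control genes were mixed, with 4 of 10 above 0. Insig1, which holds back the sterol-regulated transcription factors, stood at 81.7 and 53.5 CPM in HH and 28.2 and 43.6 CPM in TT. Fatty acid synthesis genes had a median of -0.12, and none of 10 had an unadjusted p under 0.05. The size of the sterol difference depended on single libraries: the mevalonate median was -0.31 without TT replicate 1 and -0.91 without TT replicate 2. Without HH replicate 1, or without TT replicate 1, 3 of the 10 mevalonate genes had an unadjusted p under 0.05 in place of 7. For the later sterol enzymes that number was 4 without TT replicate 1.

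The promoters of 2 cholesterol enzymes and 2 mitosis genes are printed as examples. The tested members of their lists all lay on 1 side of 0. So did those of the myelin, progenitor, pan-neuronal and ERK feedback lists, which are not printed. Each line gives the 200 bases before the gene's start, 5′ to 3′ on the gene's strand, from RefSeq on rat build GRCr8, a different build from the rn6 used for the counts. Capitals mark CCAAT (or ATTGG, its reverse complement) and, in the mitosis genes, TTTGAA (or TTCAAA). The printed bases of Nusap1 hold no TTTGAA. In the mitosis gene Kif15, which is not printed, the same window holds TTTGAA but no CCAAT. The positions are chr2:53382104-53382303 on the + strand for Hmgcs1, chr17:66547525-66547724 on the - strand for Idi1, chr2:111966627-111966826 on the - strand for Ect2, and chr3:127057095-127057294 on the + strand for Nusap1.
Hmgcs1: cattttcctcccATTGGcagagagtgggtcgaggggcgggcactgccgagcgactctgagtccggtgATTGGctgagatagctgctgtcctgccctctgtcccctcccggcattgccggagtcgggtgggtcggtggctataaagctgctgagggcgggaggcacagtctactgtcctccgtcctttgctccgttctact
Idi1: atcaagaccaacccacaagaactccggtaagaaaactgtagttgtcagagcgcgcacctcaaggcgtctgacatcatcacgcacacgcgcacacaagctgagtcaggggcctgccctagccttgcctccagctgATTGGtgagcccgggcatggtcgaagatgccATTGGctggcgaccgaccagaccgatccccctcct
Ect2: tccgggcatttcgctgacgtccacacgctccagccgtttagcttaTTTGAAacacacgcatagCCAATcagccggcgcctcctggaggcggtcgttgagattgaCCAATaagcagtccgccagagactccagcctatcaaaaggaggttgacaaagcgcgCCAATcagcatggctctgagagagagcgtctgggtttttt
Nusap1: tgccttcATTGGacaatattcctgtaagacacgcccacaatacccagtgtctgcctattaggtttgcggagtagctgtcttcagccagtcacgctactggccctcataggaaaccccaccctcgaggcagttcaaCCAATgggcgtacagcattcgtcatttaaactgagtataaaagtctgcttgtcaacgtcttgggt
CCAAT is the motif bound by the factor NF-Y, and TTTGAA is the core of the cell-cycle homology region found in promoters of many cell-cycle genes. In the 250 bases before the start, on either strand, CCAAT occurred in 34.3% of 27457 rat promoters. It occurred in 12 of the 15 cholesterol enzymes with a promoter in the table, out of 20 tested, and in 12 of 16 mitosis genes, out of 19 tested. Of the 8 myelin genes with a promoter in the table, out of 10 tested, 3 held it. TTTGAA occurred in 16.0% of all promoters, in 8 of 16 mitosis genes, in 2 of 15 cholesterol enzymes and in 0 of 8 myelin genes. The 27457 promoters include those of genes not tested here, whereas the list members were all tested, so the sets are not alike. These counts are descriptions of letters in the window.

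Activity-response genes had lower mean levels in TT, but most of the gap lay between TT and HH replicate 1. Of 21 tested rapid genes, which respond to calcium within minutes, 2 lay above 0 and the median was -1.15. Of these, 6 had an unadjusted p under 0.05 with the lower level in TT (4.56% of all genes), and 9 had both TT libraries below both HH libraries (19.3%). HH replicate 1 was the highest of the 8 libraries for 17 of the 21. Against HH replicate 1 the median difference of the TT mean was -1.82, and against HH replicate 2 it was -0.08. The signs of these differences were opposite for 7 of the 21 genes, where they were opposite for 38.4% of all genes.

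Npas4, a transcription factor induced by calcium in neurons, stood at 53.0 and 3.91 CPM in HH, 9.57 and 1.97 CPM in HT, 3.87 and 3.24 CPM in TH, and 3.74 and 3.19 CPM in TT. The second HH library thus stood close to the TT libraries, and the log2 change of -3.01 ± 1.27 had an adjusted p of 0.51. Fos stood at 37.0 and 5.74 CPM in HH and 11 and 9.36 CPM in TT, so the TT libraries lay between the HH libraries. Arc, which drives removal of AMPA receptors from synapses, stood at 41.6 and 7.04 CPM in HH and 4.24 and 5.18 CPM in TT. Egr2 had the smallest p of the list, at 19.4 and 6.26 CPM in HH and 3.24 and 3.39 CPM in TT, a log2 change of -1.91 ± 0.48 (adjusted p = 0.269). Without HH replicate 1 the median of the rapid list was -0.08 and 8 of 21 genes lay above 0. Without HH replicate 2, 15 of the 21 had an unadjusted p under 0.05 and 14 passed the adjusted test.

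Later activity-response genes, many of which encode secreted or synaptic proteins, were below HH replicate 2 as well. Of 27 tested, 3 lay above 0 and the median was -0.59. Of the 27, 15 had an unadjusted p under 0.05 (4.56% of all genes, lower in TT) and 21 had no overlap (19.3%). The median difference was -0.81 against HH replicate 1 and -0.32 against HH replicate 2. Syt4, a synaptotagmin of dense-core vesicles, stood at 91.6 and 75.4 CPM in HH and 54.6 and 44.8 CPM in TT. Its log2 change was -0.75 ± 0.16 (adjusted p = 0.224). Pcsk1, a protease that processes prohormones, stood at 38.6 and 20.6 CPM in HH, 18.4 and 10.9 CPM in HT, 13.0 and 9.11 CPM in TH, and 12.2 and 7.57 CPM in TT. All 6 libraries that received TTX lay below both HH libraries for Pcsk1. Bdnf, the neurotrophin, stood at 122 and 20.1 CPM in HH and 17.7 and 12.9 CPM in TT, a log2 change of -2.21 ± 0.97. Nptx2, a pentraxin that clusters AMPA receptors, stood at 27.8 and 19.8 CPM in HH and 16.9 and 14.3 CPM in TT. Homer1, a scaffold of the postsynaptic density whose short form is activity-induced, stood at 787 and 297 CPM in HH and 329 and 315 CPM in TT, and the groups overlapped. Without HH replicate 1 the list median was -0.30 and 3 genes had an unadjusted p under 0.05, and without TT replicate 2 there were 5 such genes.

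**Figure D3:**
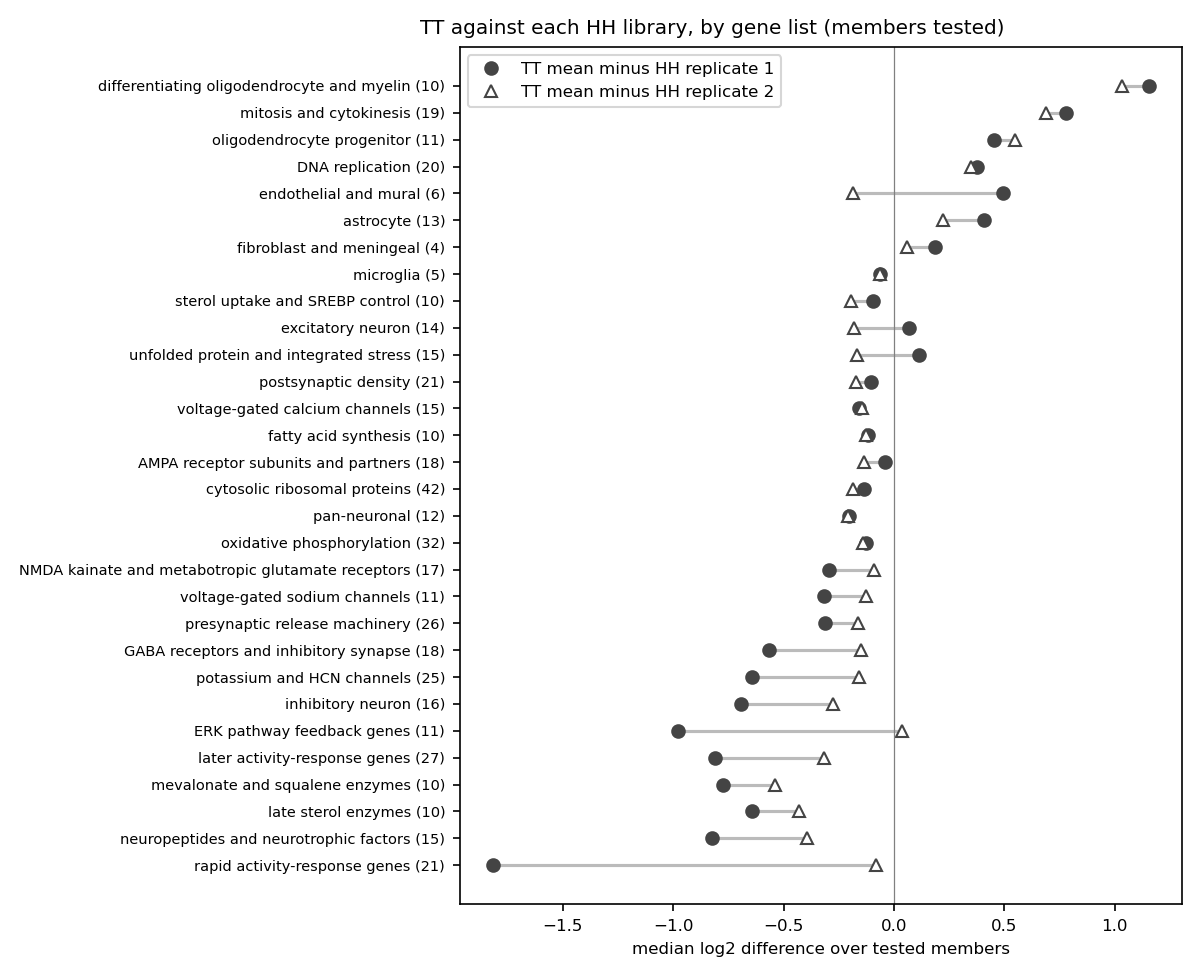
Median log2 difference of the TT mean from HH replicate 1 (filled circles) and from HH replicate 2 (open triangles) for the 30 gene lists (rows, with the number of members tested). The symbols are far apart for rapid activity-response genes, at -1.82 and -0.08, and close for myelin genes, at 1.16 and 1.03.

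Genes of inhibitory neurons stood lower in TT, again more against HH replicate 1. Of 16 tested, 2 lay above 0 and the median was -0.49. Of the 16, 5 had an unadjusted p under 0.05 (4.56% of all genes, lower in TT) and 10 had no overlap (19.3%). The median difference was -0.69 against HH replicate 1 and -0.28 against HH replicate 2. Gad1, which makes the transmitter GABA, stood at 449 and 329 CPM in HH and 198 and 242 CPM in TT. Gad2, the other GABA-making enzyme, stood at 443 and 319.5 CPM in HH and 218 and 284 CPM in TT. Their log2 changes were -0.82 ± 0.20 and -0.60 ± 0.17. Without HH replicate 1, 1 member had an unadjusted p under 0.05, and without TT replicate 2, 2 had.

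Sst and Npy, peptides on the inhibitory neuron list, were among the genes farthest below HH. The TT mean was over 2-fold below both HH libraries for 11 genes (0.0967% of those tested), which are named after their values were seen: Crhbp, Cyp11b1, Fgf10, Itga4, Lgi2, Npy, Pcsk1, Ptgs2, Rgs2, Sst and Vgf. The peptide genes Vip and Cck, also tested on the inhibitory list, were not among the 11. Sst, the peptide somatostatin, stood at 91.0 and 94.2 CPM in HH and 55.1 and 32.5 CPM in TT. Npy, neuropeptide Y, stood at 36.1 and 24.3 CPM in HH and 15.7 and 8.76 CPM in TT. Vgf, a secreted precursor of neuropeptides on the later activity-response list, stood at 115 and 101 CPM in HH and 49.3 and 29.9 CPM in TT. The groups did not overlap for these genes, and TT replicate 2 was the lower of the TT libraries in each. Both Sst and Vgf were as low in TH replicate 2, at 33.2 and 35.2 CPM, while TH replicate 1 stood at 93.1 and 110 CPM.

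The TT mean was over 2-fold above both HH libraries for 37 genes (0.325%). They included Tspan2, Gal3st1, Tcf7l2, Ugt8, Cldn11, Myrf, Gpr17 and Bcas1 of the oligodendrocyte lineage. Against HH replicate 1 alone, 255 genes were over 2-fold higher (2.24%) and 244 lower (2.15%). Against HH replicate 2 alone the numbers were 97 (0.853%) and 70 (0.616%). Scaled by library totals alone, the numbers against HH replicate 1 were 452 and 154. The choice of HH library thus changed the count of such genes by more than 2-fold in each direction.

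Genes of excitatory transmission showed small differences. Gria1, the AMPA receptor subunit, had a log2 change of -0.13 ± 0.18, and Gria2, the subunit that sets calcium permeability, one of -0.17 ± 0.19. For Gria2 the HH libraries stood at 985 and 734 CPM and the TT libraries at 794 and 735 CPM, inside the HH range. Of 18 AMPA receptor genes and partners, 5 lay above 0, with a median of -0.13. Only 1 had an unadjusted p under 0.05, near the share of all genes (4.56%, lower in TT). That gene was Cacng3, an auxiliary subunit, at 155 and 103 CPM in HH and 86.7 and 77.3 CPM in TT. Of 18 GABA receptor and inhibitory synapse genes, 3 lay above 0, with a median of -0.41. Of the 18, 4 had an unadjusted p under 0.05 (4.56% of all genes, lower in TT) and 11 had no overlap (19.3%). The median was -0.57 against HH replicate 1 and -0.15 against HH replicate 2, and without HH replicate 1, or without TT replicate 2, none had an unadjusted p under 0.05, while 11 had without HH replicate 2. Gabra3, a receptor subunit, stood at 99.0 and 79.8 CPM in HH and 70.5 and 66.1 CPM in TT. Markers of excitatory neurons had a median of -0.08, with 6 of 14 above 0, and the median was 0.04 when libraries were scaled by their totals alone.

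Several genes outside the lists completed the smallest p-values, none past the adjusted threshold. With the higher level in TT these were Afap1l2, Abtb2, Tnfrsf19, Cnksr3 and Sh3bp4, with log2 changes between 0.78 and 1.09. Abtb2 stood at 54.0 and 52.7 CPM in HH, 90.5 and 94.3 CPM in HT, 69.9 and 92.3 CPM in TH, and 96.2 and 130.5 CPM in TT. All 6 TTX libraries lay above both HH libraries for Abtb2. With the lower level were Rxrg, the retinoid X receptor gamma, Grcc10, Pcp4, a regulator of calmodulin, Lancl3, Il1rapl2, Myo16, an unconventional myosin, and Lgi2, a secreted protein. Rxrg stood at 28.1 and 22.2 CPM in HH, 16.0 and 16.8 CPM in HT, 13.8 and 14.8 CPM in TH, and 10.7 and 12 CPM in TT. All 6 TTX libraries lay below both HH libraries for Rxrg, with a log2 change of -1.14 ± 0.20 between TT and HH (adjusted p = 0.155). Lgi2 stood at 23.1 and 13.8 CPM in HH and 4.98 and 5.98 CPM in TT.

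The last comparison asked whether the change in TT equalled the sum of the 2 single changes. For each gene the log2 change of HT against HH and that of TH against HH were added, and the departure is the change of TT against HH minus this sum. HH enters the sum 2 times and the change of TT 1 time, so a deviant HH library moves them together. No gene had an adjusted p under 0.05 for the departure (0%), and the smallest was 1.00. With edgeR, 186 genes had an unadjusted p under 0.05 (1.64%), 83 above the sum (0.73%) and 103 below (0.906%), fewer than chance alone would give. DESeq2 called 0, with 35 at an unadjusted p under 0.05, and limma-voom called 0, with 191. The median departure had a size of 0.17, and its 95% interval typically reached 0.61 to each side. Departures smaller than that were thus not detectable in most genes. That reach is for 1 gene before adjustment over all genes. On simulated counts the adjusted test recovered 29.2% of 2-fold departures, so departures above 0.61 could be missed as well. The single treatments called no gene either: HT against HH had 0 (0%) with 738 at an unadjusted p under 0.05 (6.49%), and TH against HH had 0 (0%) with 464 (4.08%).

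Among the genes with the smallest p in TT against HH, the change and the sum were close relative to their intervals. Hmgcs1 had a change of -0.97 ± 0.16 and a sum of -1.05 ± 0.27, a departure of 0.08 with a 95% interval from -0.41 to 0.57. Tspan2 had a change of 1.17 and a sum of 1.41, with a departure of -0.24 (95% interval -0.78 to 0.30). Tcf7l2 and Enpp6 lay above their sums, with departures of 0.44 (-0.25 to 1.12) and 0.49 (-0.13 to 1.12). All of these intervals include 0.

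**Figure D4:**
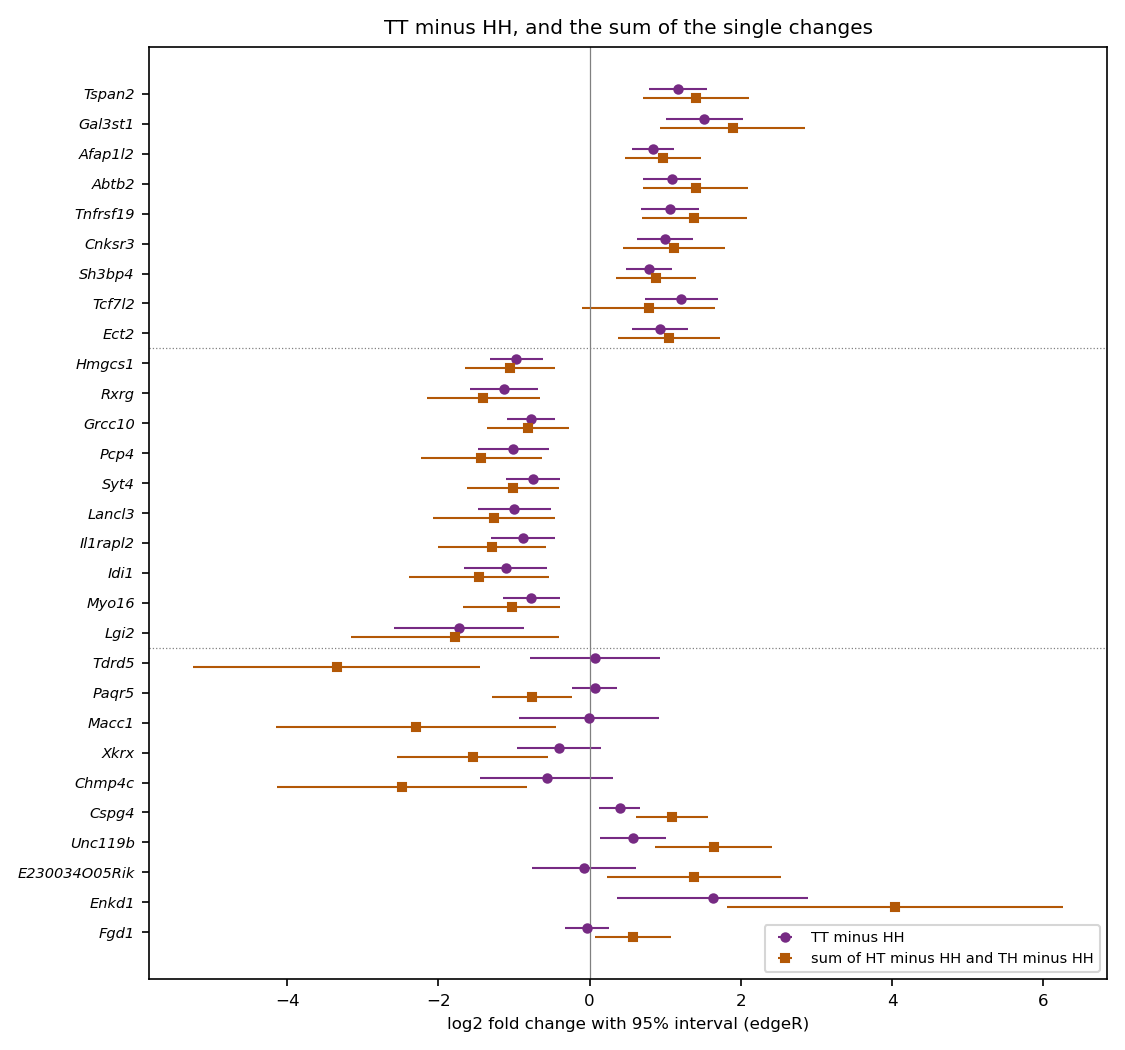
Log2 change of TT against HH (circles) and the sum of the 2 single changes (squares) with 95% intervals from edgeR (x axis), for 19 of the 20 genes with the smallest p in TT against HH and the 10 with the smallest p for the departure (rows). The intervals overlap in each of the upper 19 genes, and in the lower 10, chosen for the departure, the symbols lie apart. The change and the sum share the HH libraries, so overlap of their intervals is not a test of additivity.

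The genes with the smallest p for the departure were chosen for it, and their values are a description. Cspg4, the NG2 proteoglycan of progenitors and pericytes, stood at 67.5 and 73.0 CPM in HH, 114 and 120.4 CPM in HT, 85.9 and 93.9 CPM in TH, and 92.4 and 92.8 CPM in TT. TT thus lay below HT and within the TH range, with a departure of -0.69 (95% interval -1.07 to -0.31). Paqr5, a membrane progestin receptor, stood at 42.3 and 46.9 CPM in HH, 33.1 and 32.8 CPM in HT, 37.0 and 34.6 CPM in TH, and 47.1 and 46.4 CPM in TT. TT stood at the HH level while both single treatments stood lower, a departure of 0.82 (0.39 to 1.26). Unc119b stood at 10.8 and 11.7 CPM in HH, 18.6 and 19.7 CPM in HT, 21.3 and 20.4 CPM in TH, and 17.7 and 15.9 CPM in TT, a departure of -1.07 (-1.67 to -0.48). Fgd1, an exchange factor for Cdc42, had TT at 53.3 and 49.6 CPM beside HH at 50.6 and 54.5 CPM, with the single treatments between 59.4 and 66.8 CPM. The others were Tdrd5, Macc1, Xkrx and Chmp4c above the sum and E230034O05Rik and Enkd1 below. Tdrd5, Macc1, Chmp4c, E230034O05Rik and Enkd1 stayed under 9 CPM in every library.

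The lists differed in where TT lay relative to the sums of their members, a difference between lists that was not tested. For mitosis genes the median change in HT was 0.73, in TH 0.24, and in TT 0.76, beside a median sum of 1.00. Of the 19 genes, 3 had a departure above 0, where 51.2% of all genes did, and the median departure was -0.31. TT thus stood near the level of HT alone: Kif15, a spindle kinesin, stood at 26.5 and 27.9 CPM in HH, 45.0 and 61.8 CPM in HT, 33.1 and 37.8 CPM in TH, and 41.9 and 50.2 CPM in TT. Oligodendrocyte progenitor genes had medians of 0.50 in HT, 0.36 in TH and 0.50 in TT, beside a sum of 0.82, and 3 of 11 had a departure above 0. Myelin genes had medians of 0.48 in HT, 0.41 in TH and 1.16 in TT, beside a sum of 0.89. Of the 10 myelin genes 8 had a departure above 0. In all 10 the TT mean CPM lay above the HH mean plus both single differences, where 51.9% of all genes did so. No myelin gene had an unadjusted p under 0.05 for the departure. Without TT replicate 2 the order turned: the median in TT was 0.69 beside a sum of 0.88, 3 of 10 departures were above 0, and their median was -0.41. Mitosis genes kept a median departure below 0 whichever of the 8 libraries was left out, from -0.45 to -0.15, the latter without HT replicate 2. The median departure of the progenitor genes was -0.15, -0.01 without TT replicate 1 and -0.36 without TT replicate 2.

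Departures of cholesterol enzymes turned with single libraries. The mevalonate list had medians of -0.54 in HT, -0.23 in TH and -0.60 in TT, beside a sum of -0.79, and 8 of 10 genes had a departure above 0. The later sterol enzymes had medians of -0.46 in HT, -0.24 in TH and -0.64 in TT, beside a sum of -0.71, and 6 of 10 had a departure above 0, beside 51.2% of all genes. Without TT replicate 2 the median departure was -0.10 for the mevalonate list and -0.05 for the later enzymes, in place of 0.15 and 0.25. Without HH replicate 1 these medians were -0.10 and -0.05 again, and without HT replicate 2 they were -0.04 and 0.06. Rapid activity-response genes had medians of -0.71 in HT, -0.92 in TH and -1.15 in TT, beside a sum of -1.72. For 19 of the 21 the departure was above 0, with a median of 0.57. Without HH replicate 1 it was above 0 for 2 of the 21, with a median of -0.37. For 8 of the 21, Npas4 and Fos among them, the HH mean plus both single differences in CPM came out below 0, a level that no gene can have.

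**Figure D5:**
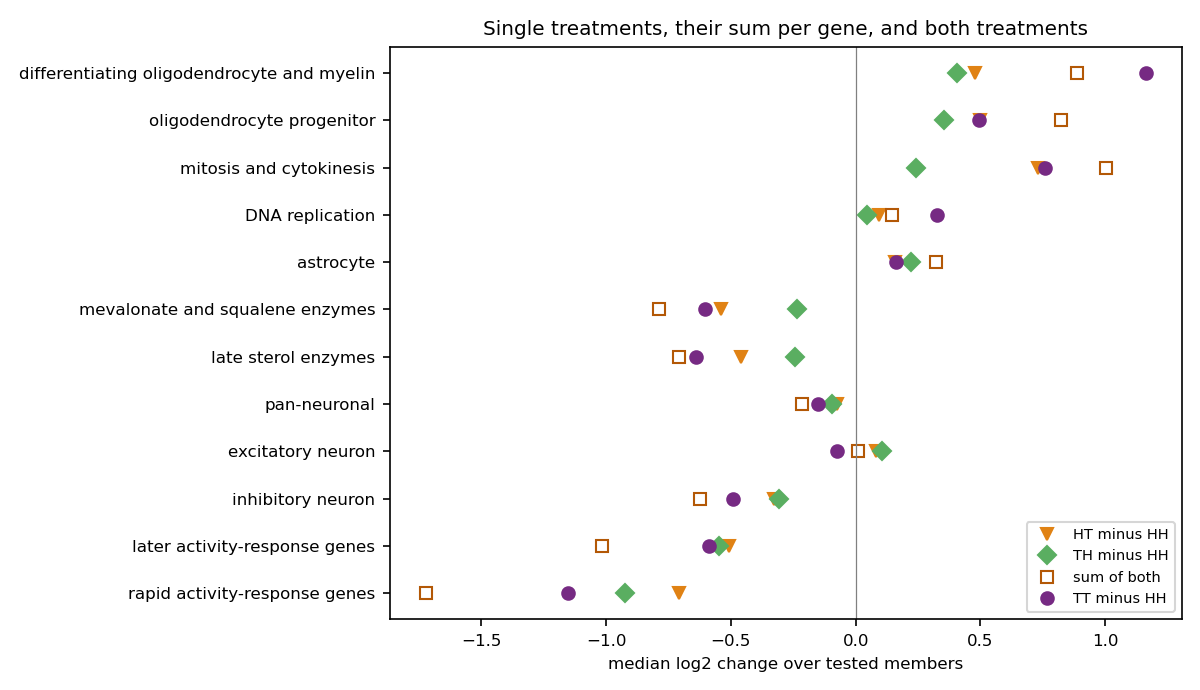
Median log2 change over the tested members of 12 gene lists (rows) for HT against HH, TH against HH, the sum of both per gene and TT against HH (x axis). TT lies beyond the sum for myelin genes, at 1.16 beside 0.89 (0.69 beside 0.88 without TT replicate 2), and short of it for mitosis genes, at 0.76 beside 1.00; all comparisons share the HH libraries.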

How the data were processed

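BrU-labelled nascent RNA was sequenced in 8 libraries. The deposited table holds read counts per gene symbol, which the authors left unnormalized. The submitters' processing notes name featureCounts, TopHat2, Bowtie2, FastQC and rat build rn6, with versions, annotation, strand setting and intron counting not given in the sources used here. Without strand, reads of overlapping genes may not be told apart, and leaving introns out would lower genes with long introns. Columns were matched to samples by the number in each sample's description; another 2 columns, with no matching sample, were left out.

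In R 4.3.3, edgeR 4.0.16 fitted 1 quasi-likelihood model of the 4 group means over all 8 libraries (filterByExpr, TMM scaling, 4 residual degrees of freedom), with Benjamini-Hochberg adjustment at 0.05. The SE was taken from the F statistic (size of the log2 change divided by its root) and rests on the spread within all groups. Log2 CPM used a prior count of 2; a fold between means used that scale. Alternatives were DESeq2 1.42.0, limma 3.58.1 (voom), other scalings and filters, an additive model, a replicate block and leaving out each library. On simulated counts (11372 genes, 200 changed, 5 runs) the test of TT against HH recovered 64.6% of 2-fold and 92.2% of 4-fold changes with 8.95% of calls false. For the departure these were 29.2%, 83.2% and 9.14%. Each gene was drawn independently, so no simulated library deviated over whole lists as HH replicate 1 and TT replicate 2 did. These shares may therefore not hold for the real libraries.

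Members and gene lists were chosen with earlier results of these data known. Named genes were the 10 with the smallest p in each direction of TT against HH (none passed), the 5 in each direction of the departure, up to 3 per list, and Gria1, Gria2, Nptx2, Homer1, Bdnf, Arc, Npas4 and Fos; other members were named with their values in view. Of the genes under this rule, a few are not reported here. No batch or date is given in the labels. P-values cover only how far these libraries vary, possibly for technical reasons.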

Additional observations from a re-analysis of the deposited data

How the results depend on the processing

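TT against HH had 0 calls in edgeR and 35 with DESeq2, 28 with no low-count filter, 16 with an additive model without an interaction term, 0 with limma-voom, and 0 to 257 when 1 library was left out. Genes called by both DESeq2 and the unfiltered fit numbered 17 (48.6% and 60.7% of each). The cause of these differences was not tested. Leaving out 1 library gave 0 to 2 calls for the departure, 0 to 39 for HT against HH and 0 to 121 for TH against HH, highest without HH replicate 2 in each. Library numbers did not pair the samples in all groups. The correlation of replicate differences was over 0.1 in 1 of 6 pairs of groups, HH and HT (0.447). The difference between replicates 1 and 2 was thus in part alike in HH and HT. These libraries enter both HT against HH and the departure. With a replicate block TT against HH had 11 calls, and the departure, HT and TH had 0.

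With 1 library left out, list medians ran from -0.91 to -0.31 (mevalonate), -0.85 to -0.43 (late sterol), 0.69 to 1.52 (myelin), -1.87 to -0.083 (rapid) and -0.84 to -0.30 (later activity-response genes). With HH replicate 1 and HT replicate 1 both left out they were -0.43 (late sterol), -0.083 (rapid) and -0.30 (later). With HH replicate 1 and TT replicate 2 both left out, a choice made after seeing the data, they were 0.40 (progenitor), 0.54 (myelin), -0.068 (rapid) and -0.20 (later).

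Changes of sign: Fos 0.81, Homer1 0.12, Gria2 0.055 and Tek -0.18 without HH replicate 1, whether or not HT replicate 1 was also left out (without HH replicate 2 Fos was -1.87, Homer1 -1.29, Gria2 -0.37 and Tek 1.53); Fos 0.93, Homer1 0.15, Gria2 0.11, Syt1 0.13 and C1qa -0.066 without HH replicate 1 and TT replicate 2; Itgam -0.30 without TT replicate 2; Tek -0.04 without TT replicate 1. Scaled by library totals, 1261 genes had TT below HH without overlap, and 452 and 154 genes were over 2-fold higher and lower than HH replicate 1. A prior count of 0.5 put 108 genes over 2-fold below HH replicate 2. Medians above 0 under library totals but below 0 under TMM were those of sterol uptake, microglia, excitatory neuron, postsynaptic density and stress genes. With 2 libraries per group, most 2-fold departures were missed by the adjusted test even on simulated counts, where 29.2% were recovered.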

Other observations

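Ion channel and release genes had levels in TT that were slightly below HH with TMM scaling. Of 25 potassium and HCN channel genes, 3 lay above 0, with a median of -0.42, and 3 had an unadjusted p under 0.05 (4.56% of all genes, lower in TT). The median was -0.64 against HH replicate 1 and -0.16 against HH replicate 2, and it was -0.22 without TT replicate 2. Kcnb2, a delayed rectifier channel, stood at 962 and 559 CPM in HH and 469 and 488 CPM in TT. Of 11 genes for voltage-gated sodium channels and their partners, the target of TTX, 1 lay above 0. That gene was Scn2b, a channel beta subunit, at 13.3 and 14.3 CPM in HH and between 18.0 and 20.5 CPM in the 6 TTX libraries. The HH libraries were thus the lowest of the 8 for Scn2b, with a log2 change of 0.55 ± 0.19 between TT and HH (edgeR adjusted p = 0.384). Of 15 voltage-gated calcium channel genes, 4 lay above 0, with a median of -0.11. Scaled by library totals alone, 7 of the 15 lay above 0, with a median of -0.0037. Of 26 genes of the release machinery, 5 lay above 0, with a median of -0.27 (-0.17 without HH replicate 1), and Unc13a, which primes vesicles, stood at 132 and 89.2 CPM in HH and 80.0 and 70.3 CPM in TT. Of 17 NMDA, kainate and metabotropic glutamate receptor genes, 4 lay above 0 and 4 had an unadjusted p under 0.05 below HH, Grin2a among them at 1004 and 604 CPM in HH and 542 and 482 CPM in TT. That number was 1 without HH replicate 1 or without TT replicate 2, and 0 without TT replicate 1.

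Feedback genes of the ERK pathway differed between the HH libraries and between the HT libraries. The 12 listed genes, tested or not, summed to 1102 CPM in HH replicate 1 and 801 CPM in HT replicate 1. They summed to between 415 and 485 CPM in the other libraries. All 11 tested genes lay below 0. Their median difference was -0.98 against HH replicate 1 and 0.04 against HH replicate 2. Without HH replicate 1, 6 of the 12 then tested lay above 0. Dusp5, a phosphatase of ERK, stood at 35.5 and 10.4 CPM in HH and 5.73 and 6.77 CPM in TT. Neuropeptides and neurotrophic factors had 1 of 15 above 0 and a median of -0.66, which was -0.41 over the 17 tested without HH replicate 1 and -0.20 over the 16 tested without HH replicate 1 and TT replicate 2 together. Nrg1, neuregulin 1, had a log2 change of -0.66 ± 0.18. Genes of cytosolic ribosomal proteins had small differences, with 5 of 42 above 0, a median of -0.15 and 9 at an unadjusted p under 0.05 below HH. That number was 3 without HH replicate 1 or without TT replicate 2, and 2 without TT replicate 1. Rpl3 stood at 688 and 707 CPM in HH and 490.3 and 496 CPM in TT. Oxidative phosphorylation genes had 6 of 32 above 0 and the same median of -0.15. Scaled by library totals alone, 13 of 42 ribosomal genes lay above 0, with a median of -0.04, and 13 of 32 oxidative phosphorylation genes, with a median of -0.05. Of 21 postsynaptic density genes, 4 lay above 0, with a median of -0.11 (0.0038 when scaled by library totals alone). Below HH, 4 had an unadjusted p under 0.05 (4.56% of all genes) and 9 had no overlap (19.3%). Without TT replicate 1 none of the 21 had such a p below HH, and without HH replicate 1, or without TT replicate 2, 1 had. Sipa1l1, a scaffold-binding protein, stood at 456 and 459 CPM in HH and 328 and 354 CPM in TT. Homer3, a scaffold and the 1 member at an unadjusted p under 0.05 above HH, stood at 3.08 and 4.17 CPM in HH and 7.23 and 8.96 CPM in TT. Genes of the unfolded protein and integrated stress responses had 6 of 15 above 0. Of these, Atf5 stood at 31.8 and 51.1 CPM in HH and 59.0 and 61.7 CPM in TT, while Xbp1 stood at 46.9 and 51.6 CPM in HH and 39.4 and 35.5 CPM in TT. Microglial genes had 2 of 5 above 0, endothelial and mural genes 4 of 6 and fibroblast genes 2 of 4, with 8, 6 and 4 listed members too low to test.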
